A study of Mus musculus with 6 samples.

Results

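The transcripts of 9 transcription factors of myeloid development were followed through an ex vivo culture of mouse bone marrow with Flt3 ligand (Flt3L). They were the CCAAT/enhancer-binding proteins Cebpa, Cebpb, Cebpd and Cebpe, the ETS factor PU.1 (gene Spi1), and Gfi1, Klf4, Maf and Runx1. They were chosen by gene symbol, all 9 were found among the 21761 genes of the deposited table, and all 9 passed the filter on low values. Levels are given in RPKM, read numbers scaled to exon length and to the total of the library.

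These factors choose between the granulocyte and the macrophage fate. PU.1 is needed for both, and for dendritic cells (DCs). C/EBP alpha starts granulocyte commitment, C/EBP epsilon turns on the genes of the late granules, and C/EBP beta acts in stress granulopoiesis and in macrophages. GFI1 represses monocyte genes in granulocyte precursors, KLF4 favours monocytes, MAF helps to maintain the macrophage state, and RUNX1 acts upstream of them in blood stem and progenitor cells.

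The series holds 6 RNA-seq libraries, 2 at each of 3 days, all labelled as male C57BL/6J bone marrow. Day 0 (libraries II and III) was labelled bone-marrow cells. Day 4 (libraries I and II) was labelled common myeloid progenitors and day 7 (libraries III and IV) bone-marrow derived dendritic cells. Cells of the cultured groups grew in RPMI with supernatant of a transfected SP2/0 line, a mouse myeloma, as the source of Flt3L, and per the labels every live cell of the day was taken, with no sort. The labels do not say whether libraries of a day are separate animals or separate cultures. The p-values therefore reflect the spread among these 6 samples, which may be technical. In bulk RNA, fewer cells of a type and less RNA per cell cannot be told apart.

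Depth differed widely between days. Library totals, counted as reads in genes, were 322837 and 157797 for day 0, 1365635 and 3852628 for day 4, and 16149088 and 10951745 for day 7. For a 1 kb gene, 1 read equalled 3.10 and 6.34 RPKM in the day 0 libraries, 0.732 and 0.260 RPKM in those of day 4, and 0.0619 and 0.0913 RPKM in those of day 7. Log2(RPKM + 1) values of the libraries of a day correlated across genes (which are not independent replicates) at Pearson's r of 0.562 at day 0, 0.899 at day 4 and 0.976 at day 7.

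Both day 7 libraries went against their labels. The Y-linked genes Ddx3y, Eif2s3y, Kdm5d and Uty had no read there, although Ddx3y alone had 301 and 577 reads in the shallower day 4 libraries. Xist, the transcript of the inactive X chromosome, had 3098 and 1434 reads at day 7, against 12 and 3 at day 4, and 8 and 7 at day 0. The source of the cells, their sex and the time in culture therefore cannot be told apart in any comparison with day 7. DC markers were mixed at day 7. The 10 markers of conventional DCs summed to 49.7 and 69.5 RPKM at day 7, against 49.3 and 17.5 at day 4 and 46.1 and 63.5 at day 0. Zbtb46 stood at 0.0288 and 0.0283 RPKM at day 7, Flt3 at 1.22 and 1.97 and Xcr1 at 0.528 and 0, whereas Itgax, which macrophages also express, stood at 24.7 and 25.9 and Cd209a at 11.8 and 21.5. Clec10a had 6.37 and 8.22 RPKM at day 7, against 0.711 and 1.09 at day 4. The 10 markers of plasmacytoid DCs summed to 649 and 757 RPKM at day 7, against 85.7 and 36.0 at day 4 and 50.1 and 43.4 at day 0, of which Bst2, also induced by interferon in other cells, made up 613 and 714 at day 7, while Siglech stood at 5.44 and 8.22. The 10 macrophage markers summed to 10188 and 10677 RPKM at day 7, none at 0, against 65.4 and 55.3 at day 4 and 117 and 108 at day 0.

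The day 4 libraries were rich in granulocyte transcripts. The 9 neutrophil markers in the table summed to 68.1 and 55.9 RPKM at day 7, where Mpo and Prtn3 had no read, against 45629 and 34900 at day 4 and 65956 and 8354 at day 0. Kit, a receptor of early progenitors, stood at 8.34 and 18.1 RPKM at day 4. Its log2 fold change at day 4 against day 0 was -0.26 ± 0.56 (SE, limma adjusted p = 0.811). The 10 stem and early progenitor markers, Kit among them, summed to 74.5 and 63.9 RPKM at day 4, against 59.1 and 48.5 at day 0. At day 7 they summed to 387.7 and 389.8 RPKM, of which Ly6a made up 332.8 and 355.5. The day 0 libraries were unlike each other in the neutrophil markers. Erythroid markers, which summed to 80867 and 40087 RPKM at day 0, summed to 3904 and 4206 at day 4. The share of these cell mixtures in the results on the 9 factors was not tested.

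More of the 9 factors were called at day 7 against either earlier day than between day 4 and day 0, and the same held over all genes. A gene was called at a limma adjusted p under 0.05 over the 19279 genes tested. At day 7 against day 4, 5 of the 9 were called, where 12.6% of all genes tested were called. Of these, 4 rose, where 5.85% of all genes rose, and 1 fell, where 6.75% fell. Against day 0, 7 of the 9 were called at day 7, where 40.6% of all genes were called. Of these, 4 rose, where 11.3% of all genes rose, and 3 fell, where 29.3% fell. Between day 4 and day 0, 2 of the 9 were called, where 5.58% of all genes were called, and both fell at day 4, where 1.92% of all genes fell and 3.66% rose. Over all genes the median log2 fold change came to -0.81 at day 7 against day 4, -1.14 at day 7 against day 0 and -0.40 at day 4 against day 0, and quantile normalization brought these to 0.04, -0.01 and -0.04. Without day 4 library I or without day 4 library II, limma called 0 genes at day 7 against day 4 (4017 or 6854 at an unadjusted p under 0.05) and 0 at day 4 against day 0 (6597 or 3063), and so 0 of the 9 factors. Without day 7 library III or IV, 2 or 1 of the 9 were called at day 7 against day 0.

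**Figure D1:**
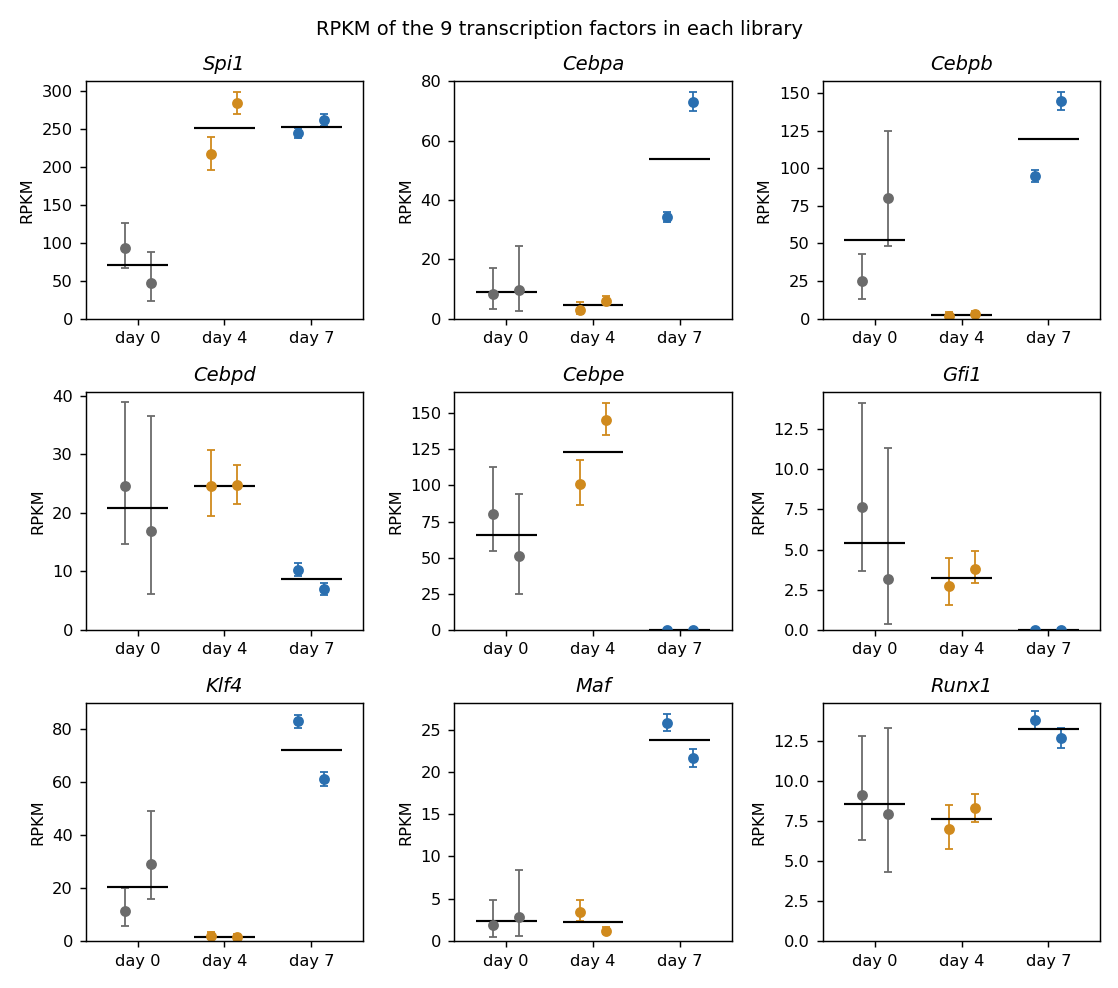
RPKM (vertical axis) of each of the 9 factors in each library, by day of culture (horizontal axis). Points are libraries, whiskers the exact 95% Poisson interval of their reads, and black bars the mean of the 2 libraries of a day. Cebpe and Gfi1 are at 0 in both day 7 libraries, and Cebpb and Klf4 have their lowest levels at day 4.

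The granulocyte factors Cebpe and Gfi1 had no read at day 7. Cebpe stood at 80.1 and 51.2 RPKM at day 0 (32 and 10 reads), at 101 and 146 RPKM at day 4 (171 and 694 reads), and at 0 RPKM in both day 7 libraries. Gfi1 was far lower, with 7.67 and 3.14 RPKM at day 0 (10 and 2 reads), 2.72 and 3.79 RPKM at day 4 (15 and 59 reads), and 0 at day 7. For both genes every earlier library lay above both day 7 libraries. Groups that do not overlap were common, at 77.2% of all genes tested for day 7 against day 4 and 70.3% for day 7 against day 0. With 3 reads over the day 7 libraries as the floor, Cebpe was at least 1379-fold lower at day 7 than at day 4 and at least 734-fold lower than at day 0, and Gfi1 was at least 119-fold lower than at day 4 and at least 197-fold lower than at day 0. Without day 7 library III or IV the bounds were lower, at 557-fold or 822-fold for Cebpe and 48.0-fold or 70.8-fold for Gfi1 against day 4, and at 297-fold or 437-fold for Cebpe and 79.7-fold or 117-fold for Gfi1 against day 0. Without day 0 library II the bound for Gfi1 against day 0 was 114.5-fold, resting on the 2 reads of library III. These floors, like the intervals of reads given here, cover counting error only.

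The fall of Cebpe was called against both earlier days (limma adjusted p = 0.000149 against day 4 and 0.000209 against day 0). Against day 0 the call held in all 17 alternative settings (adjusted p from 3.14e-08 to 0.0198), and against day 4 it was lost without day 4 library I or II (adjusted p = 0.0621 or 0.0641). Gfi1 fell against day 0 (adjusted p = 0.0173) and missed the threshold against day 4, with a log2 fold change of -2.08 ± 0.61 (SE, adjusted p = 0.0623). Leaving out either day 0 library moved the test against day 4 past the threshold (adjusted p = 0.0206 and 0.0192), and leaving out day 7 library III or IV ended the call against day 0 (0.116 or 0.129). A level of 0 at day 7 was common in low genes, with 28.3% of all genes tested at 0 in both libraries. It was rarer among the 1164 genes that averaged 50 RPKM or more at day 4, at 20 genes (1.72%). Cebpe, with a mean of 123 RPKM at day 4, was 1 of these 20. Between day 4 and day 0 neither was called, with log2 fold changes of 0.91 ± 0.40 for Cebpe (limma adjusted p = 0.202) and -0.50 ± 0.61 for Gfi1 (0.645). Without day 0 library II the log2 fold change of Gfi1 was 0.029.

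Genes that C/EBP epsilon is known to activate in late granules were lower at day 7 as well. Of 10 such genes 9 fell and 1 was not called at day 7 against day 4, with a median log2 fold change of -9.87 (all genes -0.81). Ltf, which encodes the iron-binding lactoferrin, stood at 0.429 and 0.333 RPKM at day 7, against 4411 and 4022 RPKM at day 4. Ngp, a granule protein of neutrophils, stood at 0.480 and 0.708 RPKM at day 7, against 14702 and 11460 RPKM at day 4. Mmp8, the neutrophil collagenase, fell less, to 111 and 112 RPKM at day 7, against 2308 and 1118 RPKM at day 4. Cybb, the catalytic subunit of the phagocyte oxidase and also a gene of macrophages, was the gene not called, at 460.0 and 362 RPKM at day 7, against 221 and 236 RPKM at day 4. At day 4 against day 0, 3 of the 10 rose (Mmp8, Mmp9 and Padi4), and 9 did without day 0 library II, 1 without either day 7 library and 0 without either day 4 library. None of the falls against day 4 was called without day 4 library I or II, and Mmp8 was not without day 7 library III or IV.

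The early granulocyte genes, which C/EBP alpha, PU.1 and RUNX1 are known to activate together, gave 5 falls among 6 at day 7 against day 4 (median log2 fold change -6.38), again 0 without day 4 library I or II. Mpo, the myeloperoxidase, had no read at day 7, against 447 and 641 RPKM at day 4. Elane, the neutrophil elastase, stood at 0.538 and 0 RPKM at day 7, against 835 and 1119 RPKM at day 4. Csf3r, the receptor of the granulocyte growth factor G-CSF, kept 23.3 and 30.0 RPKM at day 7, against 362 and 121 RPKM at day 4. At day 0 it had 34.3 and 44.5 RPKM, and it was not called at day 7 against day 0 (limma adjusted p = 0.409), where 4 of the 6 fell. Lyz2, the lysozyme shared by granulocytes and macrophages, was not called and lay at 7224 and 6272 RPKM at day 7, against 7105 and 5401 RPKM at day 4. Without day 7 library III Csf3r was not called against day 4. Of the genes on these lists, Ltf, Camp, Lcn2, Ngp, Mpo, Elane and Prtn3 also belonged to the neutrophil markers, so the lists are not separate measurements.

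Of 8 genes that GFI1 is known to repress, 1 rose at day 7 against day 4 and none fell (median log2 fold change 0.54). This was Id2, an inhibitor of basic helix-loop-helix factors, with 1585 and 1438 RPKM at day 7, against 86.9 and 51.0 RPKM at day 4 (log2 fold change 4.48 ± 0.75, adjusted p = 0.00763). Egr1 and Egr2, zinc finger factors that GFI1 opposes in monocyte development, were not called in that comparison. Against day 4 the call of Id2 was lost without day 4 library I or II, and more of the 8 rose without either day 0 library. At day 7 against day 0, where Gfi1 fell, 3 of the 8 rose and none fell (median log2 fold change 0.47, all genes -1.14). These were Id2 (limma adjusted p = 0.00284), Id1 (0.0116) and Egr2 (0.0275). At day 0 Id1 had 4 and 0 reads and Egr2 had 1 and 2. The call of Id1 was lost without day 4 library I or II, and that of Egr2 without day 7 library III or IV.

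Cebpb and Klf4 were lowest at day 4. Cebpb stood at 24.7 and 80.1 RPKM at day 0 (12 and 19 reads), at 1.46 and 3.11 RPKM at day 4 (3 and 18 reads), and at 94.5 and 144 RPKM at day 7 (2296 and 2380 reads). Klf4 stood at 11.2 and 29.1 RPKM at day 0 (11 and 14 reads), at 1.68 and 1.62 RPKM at day 4 (7 and 19 reads), and at 82.9 and 61.2 RPKM at day 7 (4073 and 2039 reads). In both genes the day 4 libraries lay below all the others and the day 7 libraries above all the others (51.2% of all genes had no overlap between day 4 and day 0). Both fell at day 4 against day 0, Cebpb by a log2 fold change of -3.84 ± 0.58 (SE, adjusted p = 0.0152) and Klf4 by -2.85 ± 0.49 (0.0209). Both rose at day 7 against day 4, Cebpb by 5.21 ± 0.58 (adjusted p = 0.00134) and Klf4 by 4.77 ± 0.49 (0.000986).

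The pair was among 55 genes (0.285% of those tested) that were called lower at day 4 than at day 0 and called higher at day 7 than at day 4. Another member of the KLF family, Klf2, was also among them, with 32.4 and 34.9 RPKM at day 0, with 4.84 and 10.7 RPKM at day 4 and with 38.6 and 58.6 RPKM at day 7. Klf4 rose at day 7 against day 0 by 1.91 ± 0.49 (adjusted p = 0.0216), whereas Cebpb had a log2 fold change of 1.37 ± 0.58 (0.0896) that turned to -0.087 under quantile normalization. Without day 0 library III Cebpb was called against day 0 (2.20, adjusted p = 0.0017). Klf4 was not called against day 0 without day 4 library I or II (0.0589 or 0.0707) or day 7 library III or IV (0.144 or 0.0935). Without day 4 library I or II the fall to day 4 had adjusted p of 0.0758 or 0.218 for Cebpb and 0.0739 or 0.236 for Klf4, and the rise to day 7 had 0.0973 or 0.066 for Cebpb and 0.0827 or 0.0641 for Klf4. In each of these fits the log2 fold changes stayed between -4.21 and -2.84 for the falls and between 4.75 and 5.58 for the rises.

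Cebpa and Maf were low at day 0 and day 4 and high at day 7. Cebpa stood at 8.21 and 9.60 RPKM at day 0 (7 and 4 reads), at 3.05 and 6.00 RPKM at day 4 (11 and 61 reads), and at 34.3 and 73.2 RPKM at day 7 (1461 and 2117 reads). Maf stood at 1.87 and 2.87 RPKM at day 0 (4 and 3 reads), at 3.42 and 1.14 RPKM at day 4 (31 and 29 reads), and at 25.8 and 21.6 RPKM at day 7 (2764 and 1569 reads). In both genes the day 7 libraries exceeded all the others. Cebpa lay lower in both day 4 libraries than in the day 0 ones without being called (log2 fold change -0.89 ± 0.49, adjusted p = 0.291), and for Maf the libraries of these days overlapped.

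Against day 4 Cebpa rose at day 7 by a log2 fold change of 3.26 ± 0.49 (SE, adjusted p = 0.00494) and Maf by 3.0 ± 0.52 (0.00907). Over day 0 Cebpa rose by 2.37 ± 0.49 (0.0116) and Maf by 2.89 ± 0.52 (0.00734). Library IV of day 7 held more than 2 times the Cebpa level of library III, and without it Cebpa was not called against day 4 (2.73, adjusted p = 0.0515) or day 0 (1.84, 0.122). Without day 7 library III or IV, Maf was not called against day 4 (0.102 or 0.0839) or day 0 (0.079 or 0.0655), and without day 4 library I or II the calls against day 4 were lost for Cebpa (0.111 or 0.0668) and Maf (0.0728 or 0.0641).

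**Figure D2:**
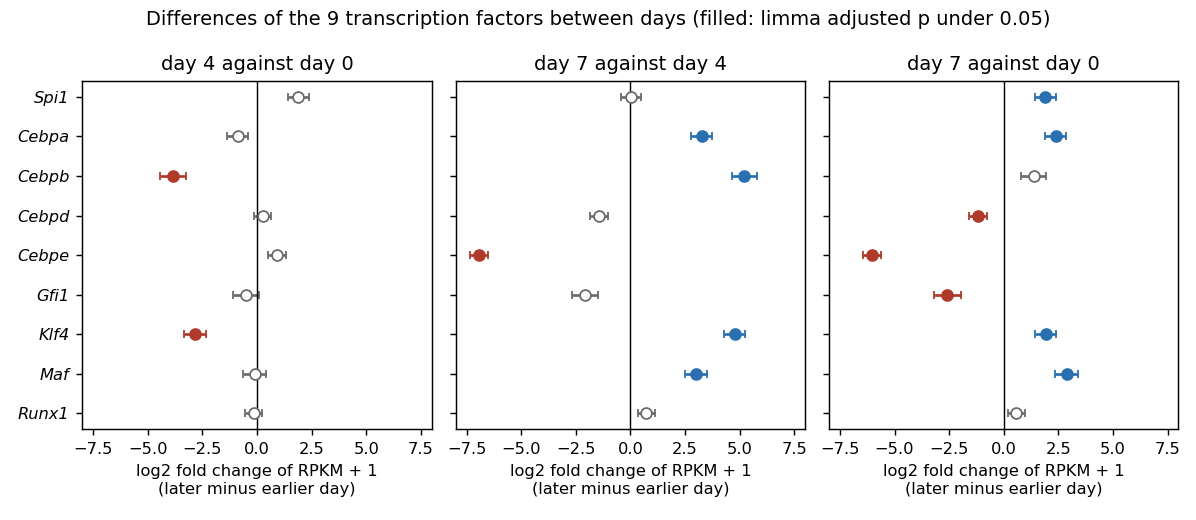
Log2 fold change of RPKM + 1 (horizontal axis) of the 9 factors (rows) at the later day minus the earlier day, in 3 panels. Whiskers are standard errors, and filled points have a limma adjusted p under 0.05. The largest fall is that of Cebpe at day 7 against day 4 (-6.93) and the largest rise that of Cebpb (5.21).

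Macrophage genes that MAF factors are known to act on rose at day 7. Of 8 such genes 6 rose and none fell at day 7 against day 4 (median log2 fold change 4.65, all genes -0.81). Without day 4 library I or II none was called, and without day 7 library III or IV 4 were. C1qb, a chain of complement C1q, had 1634 and 1813 RPKM at day 7, against 5.52 and 0.245 RPKM at day 4. Cd5l, a secreted scavenger protein of tissue macrophages, had 963 and 952 RPKM at day 7, against 2.52 and 1.40 RPKM at day 4. Cd163, the haemoglobin scavenger receptor, went the other way and had no read at day 7, against 2.58 and 1.26 RPKM at day 4. It was called lower against day 0 (adjusted p = 0.0221), as was Gpr34 (0.0443), and neither was called without day 0 library III or either day 7 library. C1qa, C1qb, C1qc, Cd5l and Mrc1 were also on the macrophage marker list.

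Of 6 other MAF and BACH genes tested, 1 rose (Maff) and 1 fell (Mafk) at day 7 against day 4, while Mafa was listed at 0 throughout and not tested. Maff had 7.29 and 15.8 RPKM at day 7, against 0 and 0.144 RPKM at day 4 (log2 fold change 3.46 ± 0.94, adjusted p = 0.0481). Mafk, like Maff a small MAF protein without an activation domain that pairs with larger partners, had 12.7 and 8.11 RPKM at day 7, against 38.4 and 59.5 RPKM at day 4 (log2 fold change -2.13 ± 0.49, adjusted p = 0.0264). Neither Maff nor Mafk was called without day 4 library I or II, or without day 7 library III or IV.

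Promoter sequence is shown for the factors that moved most and had an entry in the RefSeq table (GRCm38.p6, another build than the mm9 of the deposited values). Of the 9 genes, 5 matched: Cebpa, Cebpb, Gfi1, Klf4 and Runx1. The others, Cebpd, Cebpe, Spi1 and Maf, are named only. Each line holds the 250 bases before the start of transcription, 5′ to 3′ on the strand of the gene, in lower case, with matches to the core letters of the 9 factors' own families in capitals. The intervals are chr7:35119043-35119292 (plus strand) for Cebpa, chr2:167688665-167688914 (plus strand) for Cebpb, chr4:55532476-55532725 (minus strand) for Klf4, and chr5:107725806-107726055 (minus strand) for the upstream start of Gfi1.
Cebpa: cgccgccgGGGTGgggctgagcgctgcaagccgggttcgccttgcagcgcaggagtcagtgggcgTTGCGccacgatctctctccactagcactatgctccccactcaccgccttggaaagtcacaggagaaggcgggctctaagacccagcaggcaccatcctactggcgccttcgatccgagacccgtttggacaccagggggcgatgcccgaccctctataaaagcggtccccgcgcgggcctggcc
Cebpb: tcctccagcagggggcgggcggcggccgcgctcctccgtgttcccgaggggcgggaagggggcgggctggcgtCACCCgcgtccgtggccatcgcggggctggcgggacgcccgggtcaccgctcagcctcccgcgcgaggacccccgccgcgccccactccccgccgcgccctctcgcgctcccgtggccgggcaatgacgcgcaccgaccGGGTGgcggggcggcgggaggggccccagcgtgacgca
Klf4: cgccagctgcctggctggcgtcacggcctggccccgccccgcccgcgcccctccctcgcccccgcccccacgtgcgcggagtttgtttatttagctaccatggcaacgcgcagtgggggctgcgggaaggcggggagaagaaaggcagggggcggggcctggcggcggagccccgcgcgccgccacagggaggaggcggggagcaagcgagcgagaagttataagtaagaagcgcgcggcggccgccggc
Gfi1: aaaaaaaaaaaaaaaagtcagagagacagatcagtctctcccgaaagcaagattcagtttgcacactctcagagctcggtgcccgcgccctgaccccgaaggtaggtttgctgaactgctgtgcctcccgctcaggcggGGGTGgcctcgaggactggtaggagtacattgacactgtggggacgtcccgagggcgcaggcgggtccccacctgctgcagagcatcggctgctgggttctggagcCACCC

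The letters searched, on both strands, were TTGCG for C/EBP (found in 14.5% of all 32851 promoters of this length), GAGGAA for PU.1 (23.3%), TGTGGT for RUNX (14%), CACCC for KLF (52%), AATCAC for GFI1 (9.14%) and TGCTGAC for MAF (3.81%). The Cebpa promoter held TTGCG from base -185 to -181 and CACCC on the other strand from -242 to -238, counted back from the start. Cebpb held CACCC from -177 to -173 and, on the other strand, from -38 to -34. The upstream Gfi1 promoter held CACCC from -5 to -1 and, on the other strand, from -111 to -107. None of the 6 sets of letters occurred in the Klf4 window, which says only that these letters are not in it. Cebpb and Klf4, which had like profiles over the days, thus shared no match among these letters.

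The make-up of the C/EBP transcripts changed while their sum did not order the days. Summed over the 4 genes, RPKM came to 138 and 158 at day 0, to 130.3 and 179 at day 4 and to 139 and 225 at day 7. Cebpe made up 58.2% and 32.5% of the sum at day 0, 77.6% and 81.2% at day 4, and 0% at day 7. Cebpb made up 18% and 50.8% at day 0, only 1.12% and 1.73% at day 4, but 68% and 64.3% at day 7. At day 7 the rest was mostly Cebpa, at 24.6% and 32.6% of the sum. Thus Cebpe held the largest share of the 4 in both day 4 libraries and Cebpb in both day 7 libraries, whereas the day 0 libraries were split.

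**Figure D3:**
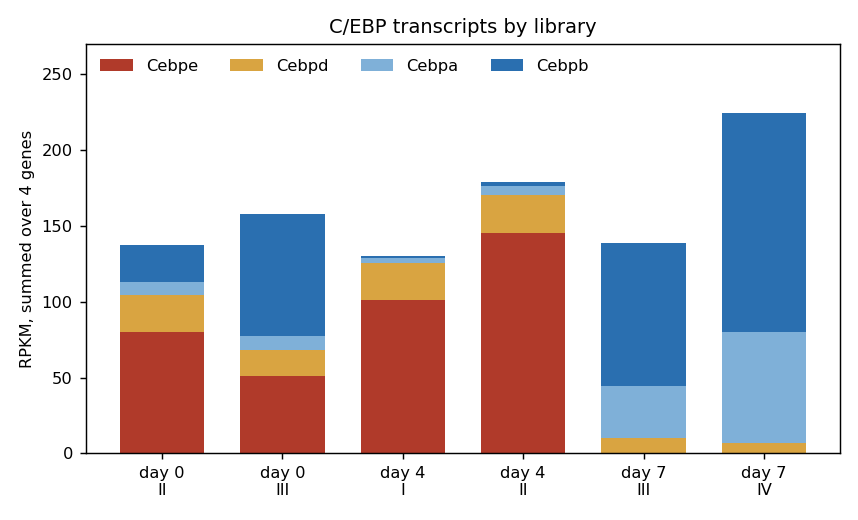
RPKM of the 4 C/EBP genes stacked for each library (horizontal axis, day and replicate); the height of a bar is their sum. Cebpe fills 77.6% and 81.2% of the day 4 bars and none of the day 7 bars, where Cebpb fills 68% and 64.3%.

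Cebpd, a C/EBP member induced in acute inflammation, had its lowest levels at day 7. It stood at 24.7 and 16.8 RPKM at day 0 (18 and 6 reads), at 24.6 and 24.7 RPKM at day 4 (76 and 215 reads), and at 10.3 and 6.95 RPKM at day 7 (375 and 172 reads). Both day 7 libraries lay below all the others, while the libraries of day 4 and day 0 overlapped. It fell at day 7 against day 0 by a log2 fold change of -1.18 ± 0.40 (SE, adjusted p = 0.0455), close to the all-gene median of -1.14, and the call was lost in 13 of 17 alternative settings. Among these were the fits without day 0 library II (0.0821), day 4 library I or II (0.0648 or 0.0765) and day 7 library III or IV (0.14 or 0.302). Against day 4 its log2 fold change was -1.44 ± 0.40 (adjusted p = 0.0506), and it was called without day 0 library II or III (0.00609 or 0.00538). Of the 9 other C/EBP relatives and partners, limma called 0 at day 7 against day 4, with 4 at an unadjusted p under 0.05 and 5 called by voom. Ddit3, the stress-induced C/EBP relative CHOP, rose at day 4 against day 0 (log2 fold change 4.13 ± 0.87, adjusted p = 0.0357). It had 42.9 and 56.6 RPKM at day 4 (51 and 190 reads), against 0 and 7.28 RPKM at day 0 (0 and 1 reads). This call was lost without day 4 library I or II.

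Spi1 was the most abundant of the 9 factors in the cultured cells and was nearly level between day 4 and day 7. It stood at 92.9 and 47.5 RPKM at day 0 (40 and 10 reads), at 218 and 285 RPKM at day 4 (396 and 1462 reads), and at 245 and 262 RPKM at day 7 (5268 and 3823 reads). Both cultured days lay above both day 0 libraries, and the day 7 libraries lay between the day 4 ones. Its log2 fold change at day 7 against day 4 was 0.02 ± 0.47 (SE, adjusted p = 0.971), which quantile normalization turned to -0.86. Spi1 rose against day 0 at day 7, by 1.91 ± 0.47 (adjusted p = 0.0189), and missed the threshold at day 4, with 1.89 ± 0.47 (0.0562). The call at day 7 was lost without day 7 library III or IV (0.117 or 0.141), and under quantile normalization the value fell to 0.44 (0.506). At day 4 Spi1 was called without day 0 library II (0.000195) or III (0.0116).

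Genes known to be under PU.1 in macrophages moved in both directions at day 7 against day 4. Of 10 such genes, 4 rose, 1 fell and 5 were not called at day 7 against day 4 (median log2 fold change 0.75, or -0.15 under quantile normalization). Csf1r, the receptor of the macrophage growth factor M-CSF, had 219 and 242 RPKM at day 7, against 11.7 and 21.4 RPKM at day 4. Cd68, a lysosomal protein of macrophages, had 2009 and 2306 RPKM at day 7, against 171 and 88.4 RPKM at day 4. Itgam, the integrin CD11b of granulocytes and macrophages, was the gene that fell, with 42.5 and 28.7 RPKM at day 7, against 301 and 369 RPKM at day 4. At day 4 against day 0, 4 of the 10 rose (Fcgr3, Cd68, Csf2ra and Itgam) and 1 fell (Fcgr1). At day 7 against day 0, where Spi1 rose, 5 of the 10 rose (Cd68, Csf1r, Fcgr3, Msr1 and Cybb) and none fell. The median log2 fold change was 1.30 there, against -1.14 over all genes, and Cybb was not called without day 7 library III or IV. The calls at day 7 against day 4 and at day 4 against day 0 were all lost without day 4 library I or II. Without day 7 library III or IV, Csf2ra, Itgam and Fcgr1 were not called at day 4 against day 0.

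**Figure D4:**
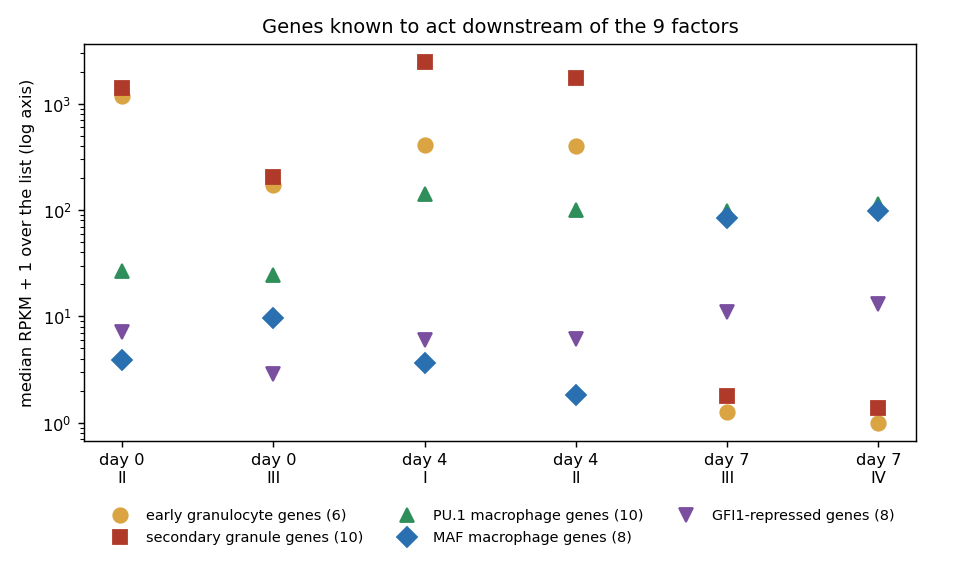
Median RPKM + 1 (vertical axis, log scale) over 5 lists of genes known to lie downstream of the 9 factors, in each library (horizontal axis), with the number of genes of a list in its key. The granulocyte lists are near 1 in the day 7 libraries, and the MAF list has its highest medians there.

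The other ETS genes gave 3 falls and no rise among 15 at day 7 against day 4. Ets1, best known from lymphocytes, had 1.06 and 0.196 RPKM at day 7, against 45.0 and 48.0 RPKM at day 4 (log2 fold change -4.92 ± 0.46, adjusted p = 0.00066). Erg and Elk4 were the others that fell. Fli1 and Elf1, which with Spi1 and Ets1 had the highest means of the list over the libraries, were not called in any comparison. Against day 0 the PU.1 relatives moved apart. Spic rose at day 7 to 16.1 and 16.2 RPKM, against 2.28 and 0 RPKM at day 0 (1 and 0 reads, adjusted p = 0.00924). Spib fell to 1.47 and 1.18 RPKM, against 10.0 and 11.4 RPKM at day 0 (9 and 5 reads, adjusted p = 0.013). Spic and Spib were not called against day 0 without day 7 library III or IV. Erg and Elk4 were not called against day 4 without any of the day 4 or day 7 libraries, and Ets1 was not without day 4 library I or II.

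Of the 12 other KLF genes, 2 rose (Klf2 and Klf13) and 1 fell (Klf5) at day 7 against day 4. Klf13 had 74.4 and 80.0 RPKM at day 7, against 10.7 and 8.81 RPKM at day 4 (log2 fold change 2.87 ± 0.36, adjusted p = 0.00233), and 14.1 and 10.6 RPKM at day 0. Klf6, the most abundant of the family, had 261 and 219.6 RPKM at day 7, against 272 and 361 RPKM at day 4, and was not called between these days. At day 4 against day 0, Klf1, the erythroid member, fell with the erythroid markers to 3.82 and 2.20 RPKM, against 68.7 and 33.1 RPKM at day 0 (-3.63 ± 0.55, adjusted p = 0.0151). Without day 4 library I or II none of these was called against day 4 or at day 4, and without day 7 library IV Klf2 was not.

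Runx1 was expressed in every library at a level that was not called different between any days. It stood at 9.14 and 7.93 RPKM at day 0 (33 and 14 reads), at 7.01 and 8.29 RPKM at day 4 (107 and 357 reads), and at 13.8 and 12.7 RPKM at day 7 (2492 and 1552 reads). The day 7 libraries lay above all the others, and those of day 4 and day 0 overlapped. The log2 fold change was 0.72 ± 0.39 at day 7 against day 4 (SE, limma adjusted p = 0.247) and 0.58 ± 0.39 at day 7 against day 0 (0.253). At day 4 against day 0 it was -0.14 ± 0.39 (0.856). Against medians over all genes of -0.81, -1.14 and -0.40, these values were higher. At day 4 against day 0 the log2 fold change of Runx1 turned to 0.011 with median-ratio scaling and to 0.14 with quantile normalization. Cbfb, the common partner of RUNX proteins, had 41.1 and 31.5 RPKM at day 7, against 17.0 and 23.1 RPKM at day 4, and of 8 other RUNX genes and cofactors limma called 0 in that comparison, with 0 at an unadjusted p under 0.05 and 5 called by voom.

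Some other regulators of monocytes and macrophages rose at day 7. Of 18 such genes, 7 rose, 1 fell and 10 were not called at day 7 against day 4, where 5.85% of all genes rose. At day 7 against day 0, 12 rose, 1 fell and 5 were not called, where 11.3% of all genes rose. The median log2 fold changes were 1.82 and 1.97, against -0.81 and -1.14 over all genes. Irf5, a factor of inflammatory macrophages, had 101 and 96.3 RPKM at day 7, against 15.2 and 9.90 RPKM at day 4. Irf8, which PU.1 binds with in monocytes and DCs, had 38.8 and 35.6 RPKM at day 7, against 7.50 and 4.78 RPKM at day 4. Nr4a1, needed for patrolling monocytes, had 55.4 and 36.8 RPKM at day 7, against 0.887 and 2.10 RPKM at day 4. Stat3, a transducer of G-CSF and IL-10 signals, was the gene that fell, to 21.2 and 14.6 RPKM at day 7, against 56.5 and 76.8 RPKM at day 4. Without day 7 library III or IV, 2 or 3 rose and none fell against day 4 and 3 rose and none fell against day 0, and without day 4 library I or II none was called against day 4.

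Among the 9 factors, the order of levels per length changed with the day. Means (SD, n = 2 each) placed Spi1 first at day 0 with 70.2 ± 32.1 RPKM, followed by Cebpe with 65.6 ± 20.4 and Cebpb with 52.4 ± 39.1, which did not differ beyond their spread. At day 4 Spi1 came first with 251 ± 47.5 RPKM and Cebpe second with 123 ± 31.4, while Cebpb, Maf and Klf4 were last with 2.28 ± 1.16, 2.28 ± 1.62 and 1.65 ± 0.0451. At day 7 Spi1 had 253 ± 12.1 RPKM, Cebpb 119.5 ± 35.3, Klf4 72.0 ± 15.3 and Cebpa 53.7 ± 27.5. Of these, Klf4 differed from neither Cebpb nor Cebpa beyond their spread, and no test was made between factors.

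The profile of each factor was set beside those of 2859 tested genes that averaged 20 RPKM or more, by the root mean square (RMS) difference of log2(RPKM + 1), each gene centred on its own mean over the 6 libraries. The gene nearest to Cebpb was Klf4 itself (RMS 0.56), followed by Ybx3 (0.76) and Fos (0.77). Nearest to Cebpe were Itgb2l (0.53), Fcnb (0.59) and Hdc (0.62), each at 0 in both day 7 libraries. For Klf4 they were Bcl2a1b (0.37), Slc29a1 (0.49) and Pim1 (0.51), and for Maf Timm17a (0.19), Marcks (0.20) and Crlf2 (0.23). Spi1 lay nearest to Psmd4 (0.16) and Runx1 to Rsl1d1 (0.11). Cebpa lay nearest to Ube2m (0.28), Cebpd to Hnrnpk (0.26) and Gfi1 to Ube2c (0.22). Ube2c kept 18.7 and 14.9 RPKM at day 7, where Gfi1 had no read. The added 1 understates the changes of low genes such as Gfi1, so a small RMS does not mean equal fold changes. All these likenesses are descriptions over 6 libraries that differ in depth, and no test was made of them.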

How the data were processed

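RNA-seq was run on bone marrow cells at days 0, 4 and 7 of culture, with Qiagen RNeasy extraction and SMARTer v3 Ultra Low Input and NexteraXT libraries, per the labels' protocols. The deposited table holds the authors' RPKM per gene with Entrez ID, symbol and exon length. TopHat2 2.0.13, SAMtools 1.1 and the mm9 build are listed, per the submitters' processing notes. The counter, the annotation and whether strand was used were not given in the sources used here.

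Each RPKM corresponded to a whole number of reads (to within 6.88e-05 reads), which was recovered from exon length and library total. Exact 95% Poisson intervals and a floor of 3 reads were computed. Genes with at least 1 RPKM in at least 2 libraries were tested on log2(RPKM + 1), which understates changes of low genes, with limma 3.58.1 in R 4.3.3 (mean-variance trend, 3 group means, 3 residual and 5.22 prior degrees of freedom, two-sided, Benjamini-Hochberg over 19279 genes). The shared spread treats a shallow library like a deep one. The members and the 19 gene lists were chosen with earlier results of these data known, and no set test was made. A gene of the MAF and BACH list is not reported here. Named were the 9 members, called list genes (up to 6 by adjusted p), the 4 highest of a list, and the 3 nearest profiles. Motifs were matched by letters in RefSeq promoters, and plots were drawn with matplotlib 3.10.9. The fit was also run on simulated reads, where only genes more abundant than most of the 9 factors were changed. All simulated libraries shared the same spread, so that run does not speak to low genes or to the unlike day 0 libraries. With the real data, 17 alternative settings were run.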

Additional observations from a re-analysis of the deposited data

How the results depend on the processing

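Of 456 values of the 9 factors under alternative settings, 357 kept direction and side of the threshold, 63 lost the call, 21 gained it and 15 changed sign, and no cause of these was tested. The sign changes were of Cebpd at day 4 against day 0 (quantile normalization -0.074, leaving out a library -0.00067 to 0.53), Gfi1 (thinned reads 0.23, leaving out a library -1.04 to 0.029), Maf (quantile 0.57, thinned 1.06, leaving out a library -0.64 to 0.41) and Runx1 (quantile 0.14, median-ratio scaling 0.011, thinned 0.084), of Spi1 at day 7 against day 4 (quantile -0.86, leaving out a library -0.17 to 0.22) and of Cebpb at day 7 against day 0 (quantile -0.087). None of these was called in the fit of all libraries.

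The number of the 9 called at day 4 against day 0 was 2, and 0 with no filter on low values, with voom and with weights per library, and 1 with thinned reads and with the 2 days alone (leaving out a library, 0 to 3). At day 7 against day 4 it was 5, and 2 with thinned reads (leaving out a library, 0 to 7). At day 7 against day 0 it was 7, and 2 with quantile normalization and 4 with thinned reads (leaving out a library, 1 to 8).

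Over all genes, 1075 were called at day 4 against day 0, and 535 with a pseudocount of 0.1, 349 with no filter, 309 with voom, 1811 with thinned reads, 529 with the 2 days alone and 0 with limma weights per library (2757 at an unadjusted p under 0.05). Leaving out a library gave 0 to 3397. At day 7 against day 4, 2428 were called, and 3996 with a pseudocount of 0.1, 1499 with no filter, 978 with quantile normalization, 12788 with voom (2396 higher, 10392 lower, against 1127 and 1301), 904 with thinned reads and 3921 with the 2 days alone. Leaving out a library gave 0 to 5186. At day 7 against day 0, 7832 were called (2183 higher, 5649 lower), and 5068 with no filter, 4957 with a minimum of 5 RPKM, 2141 with quantile normalization (1211 higher, 930 lower) and 3766 with thinned reads. Leaving out a library gave 1369 to 9599.

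A minimum of 5 RPKM removed Gfi1, which gave no value there. No paired analysis was possible because day 0 and day 4 share only number II, day 0 and day 7 only number III, and day 4 and day 7 none. Depth limits day 0, where 6 of the 9 factors had under 20 reads in both libraries.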

Other observations

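For 6 of the 9 factors GENCODE M21 lists a gene that overlaps on the opposite strand, and because the use of strand is not stated, reads of the pair cannot be separated. Tmem189, which overlaps Cebpb, had 24.6 and 12.6 RPKM in the day 0 libraries, 76.4 and 122 in those of day 4, and 101 and 120.0 in those of day 7. Tmem189 was thus high at day 4, where Cebpb had its lowest levels, and also at day 7, where Cebpb had its highest. Whether reads of Tmem189 entered the Cebpb values was not tested. Spidr, which overlaps Cebpd, had 1.65 and 10.2 RPKM in the day 0 libraries, 9.19 and 5.37 in those of day 4, and 1.84 and 2.39 in those of day 7. Cebpa, Gfi1, Maf and Runx1 overlap predicted or clone-named genes. No such gene was found for Cebpe, Spi1 and Klf4.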
